A study of Triticum aestivum with 9 samples.

Results

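Basic helix-loop-helix (bHLH) proteins are transcription factors that bind DNA as dimers, through a basic stretch next to a pair of helices that holds the partners together. In plants they form one of the largest families of regulators, with known members in light signalling, iron uptake, jasmonate signalling, stomatal development and responses to drought and cold. The endoplasmic reticulum (ER) stress that the study set out to follow arises when proteins fold poorly in the ER, and the best known transcription factors of this response in plants belong to the bZIP and NAC families.

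The 31 bHLH genes described here are all genes that carry this family name in the study's list of 457 predicted wheat transcription factors, out of 130542 genes in the deposited table. The study drew that list from genes called as differentially expressed between these same libraries. The values in the 3 comparisons therefore chose the members, so they are given as a description with no test, and a high share of calls among them is not a result. None of the 31 genes was in the study's separate list of plant hormone signalling genes, so none was left out.

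The libraries came from leaves of wheat (Triticum aestivum) seedlings of the cultivar Yunong211 on day 2 of treatment, with 3 biological replicates in each of 3 groups. The control (C) received no added chemical. The second group (D) received DTT, a reducing agent that breaks disulfide bonds, and the third (T) received DTT together with TUDCA, a bile acid that serves to ease protein folding. Leaves given TUDCA alone were not analysed here, so TUDCA is read only on top of DTT. Values were FPKM, the number of sequenced fragments on a gene per kilobase of transcript and relative to the fragments of the whole library, which allow levels to be compared between genes. In a whole leaf, fewer cells of a type and less RNA per cell cannot be told apart.

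Depth ran from 16334880 to 26760205 gene-assigned fragments per library. As a check of the tissue, 24 genes of the chloroplast oxygen evolving complex were above 0 in every library, with summed FPKM of 9159 to 11357 in C, 5005 to 5066 in D and 5196 to 5999 in T. Of these 24 genes, 19 were lower and 5 higher in D than in C. The summed FPKM of 3 genes for the ER chaperone BiP was 8.82 to 14 in C, 18.2 to 48 in D and 38.7 to 149 in T. The study drew both lists from genes called in D vs. C, so nothing is read from their differences between groups. Only the presence of the 24 genes serves as the check. T replicate 2 stood apart, with 2148 of 55137 genes more than 4-fold away from the other libraries of its group, against 165 to 581 in the other 8 libraries. Where leaving it out ended or made a call, the value without it is given.

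An identifier such as Traes_5BL_DDC2491F7 names the long arm of chromosome 5 of the B genome, and wheat carries the related A, B and D genomes. Of the 31 genes, 7 lay in the A, 15 in the B and 9 in the D genome. Chromosome group 4 held 8, group 5 held 8, group 6 held 7, group 3 held 5, all on 3B, group 2 held 2 and group 7 held 1. Copies of a gene in different genomes are close in sequence, and how the counting divided reads between them is not given in the sources used here, so levels of single copies are uncertain.

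The members differed widely in level. Mean FPKM over the 9 libraries was over 10 in 4 genes, between 1 and 10 in 17 and under 1 in 10. The 2 most abundant genes, Novel07402 and Novel07753, alone made up 48.2% to 52.5% of the summed FPKM of the 31 genes in C, 26.4% to 34.4% in D and 41.4% to 57.2% in T. At the other end, 5 genes had 3 fragments or fewer in every control library, 2 in every DTT library and 1 in every T library. Folds against such a group are given as lower bounds, set by 3 fragments in each of its libraries.

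**Figure D1:**
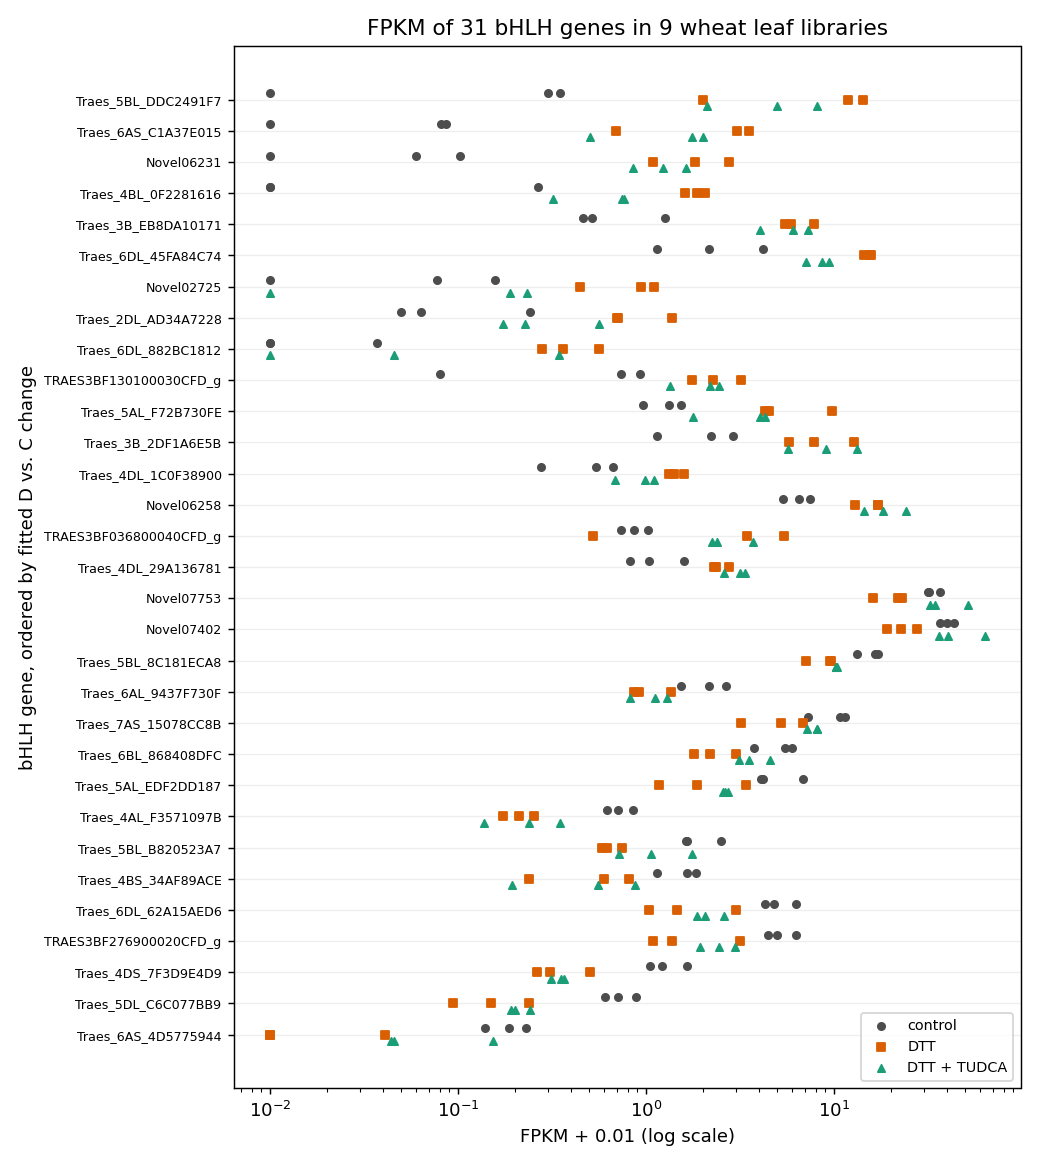
FPKM of the 31 bHLH genes in each library, on a log axis after adding 0.01, with 3 points per group for control (circles), DTT (squares) and DTT + TUDCA (triangles). Genes run from the highest fitted D vs. C change at the top to the lowest, with Traes_6AS_4D5775944, which was too low to be fitted, at the bottom. The levels range from 0 in single libraries to 63.4 FPKM for Novel07402 in T replicate 2.

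FPKM values below are as deposited, while counts of genes without overlap between groups use the scaled values. Differences were computed as log2 fold changes from 1 linear model over all genes (limma), on log2 of the scaled FPKM plus 0.1, for the 78030 genes whose mean FPKM reached 0.1. A gene was called with an unadjusted P-value under 0.01 and a log2 fold change of 1 or more in size, the thresholds of the study. Of the 31 members 30 passed the filter, and Traes_6AS_4D5775944 fell below it.

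In D vs. C, 27 of the 30 genes were called, 14 higher and 13 lower in D, where 8.02% of all genes tested were called, 4.27% higher and 3.75% lower. Without DTT replicate 3 the count was 18, and 17 of the 27 genes were called whichever library was left out. The 3 DTT libraries did not overlap with the 3 control libraries in 29 genes, against 33.8% of all genes. The members were picked as differentially expressed, so nothing is read from these shares. The family was split between directions, with log2 fold changes from -1.93 to 4.63. The median was 0.94, while that of all genes was -0.01. No member lay between -0.97 and 0.85, so the median of the family turns on few genes. Without the scaling of libraries 15 were called higher and 8 lower. That scaling moved the median D vs. C change of all genes from 0.22 to -0.01.

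Direction and starting level went together in this set. Of the 14 genes with a control mean under 1 FPKM, 11 were higher and 3 lower in D. Of the 17 genes with a control mean of at least 1 FPKM, 5 were higher and 12 lower. A gene near 0 in the control can be picked as changed only by being higher in a treated group, so this division is partly fixed by how the members were chosen.

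Among the closest to the threshold on log2 fold change in D vs. C, Novel06258 (1.04) and Novel07402 (-1.05) lay just inside, and Novel07753 (-0.97) and Traes_4DL_29A136781 (0.85) just outside.

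**Figure D2:**
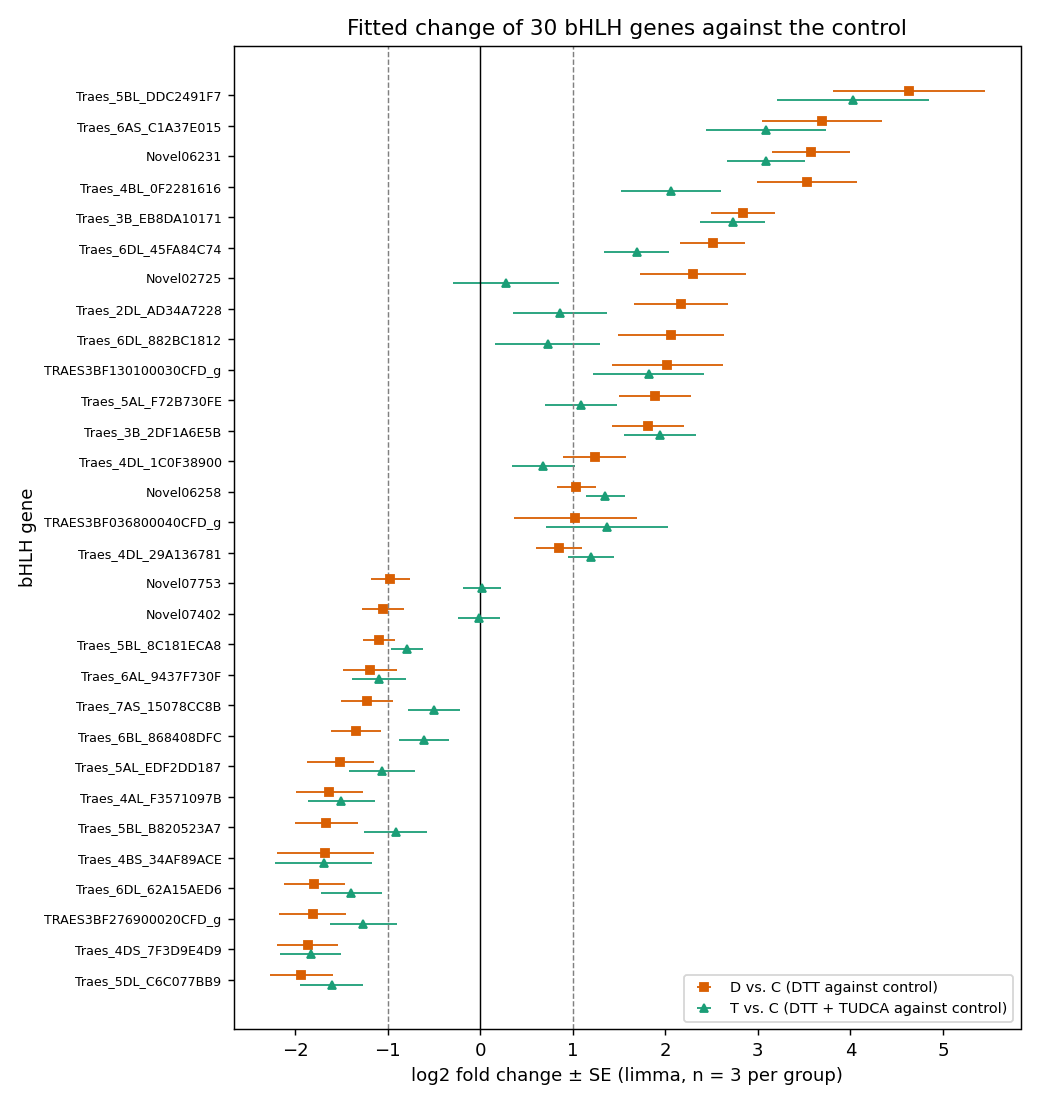
Fitted log2 fold change against the control, with its standard error, of the 30 bHLH genes that could be fitted, for DTT (squares) and DTT + TUDCA (triangles), with 3 libraries per group. The dashed lines mark a change of 1 in either direction. Both comparisons use the same 3 control libraries. The squares range from -1.93 to 4.63 and the triangles from -1.83 to 4.03.

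Novel07753 is the gene that the study named TabHLH39. The study cites earlier work in which TabHLH39 raised the tolerance of transgenic Arabidopsis to drought, salt and cold. The Arabidopsis gene with the same number, bHLH39, is known as a regulator of iron uptake in roots. Whether the wheat gene is its counterpart was not tested. Novel07753 lies at chr5D:22316375-22318551 on the plus strand, in the coordinates of the deposited table, whose genome release is not given in the sources used here. It is a locus that the authors added to the annotation, with an implied transcript length of 1573 bp. The study's GO terms for it include protein dimerization activity, as for bHLH proteins in general. They also include iron ion binding, dioxygenase activity and sulfur amino acid metabolic process, terms that do not describe DNA binding or a role in iron uptake. The study followed this gene by quantitative PCR with the primer pair below, which is shown because it is the sequence by which the gene was assayed apart from sequencing.
Novel07753-F: gcatcctcccgaagaagcct
Novel07753-R: tcgaccggcgattcacttca

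The FPKM of Novel07753 was 36.6, 31.6 and 32.1 in control replicates 1, 2 and 3, 23, 22 and 16.1 in the DTT replicates, and 32.4, 51.8 and 34.5 in the T replicates. All 3 DTT libraries were below all 3 control libraries, and all 3 T libraries were above all DTT libraries, while T and C overlapped. Group means were 33.4 ± 2.74 in C, 20.4 ± 3.72 in D and 39.6 ± 10.6 in T (SD, n = 3). The log2 fold change against the control was -0.97 ± 0.21 (SE) under DTT and 0.02 ± 0.21 under DTT + TUDCA, and that of T over D was 1.0 ± 0.21, short of 1 before rounding. T replicate 2 was the highest of the 9 libraries, and without it the T vs. D value was 0.76. The study, which used another test, reported this gene as lower under DTT and higher after TUDCA was added, also by quantitative PCR. Here it was called in none of the 3 comparisons with all libraries, with D vs. C and T vs. D just short of the size threshold. Against C it was called without control replicate 3 (-1.03), DTT replicate 1 (-1.06) or DTT replicate 2 (-1.03). Over D it was called without DTT replicate 1 (1.09), DTT replicate 2 (1.05), T replicate 1 (1.14) or T replicate 3 (1.1).

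Novel07402 lies at chr5B:49130940-49133516 on the minus strand, with an implied length of 2026 bp, and it was the most abundant bHLH gene of the set. It gave 40, 36.5 and 43.6 FPKM in C, 27.7, 22.6 and 19.2 in D, and 36.4, 63.4 and 40.5 in T. As with Novel07753, the DTT libraries lay below all the others and T replicate 2 was the highest. The log2 fold change against the control was -1.05 ± 0.23 under DTT and -0.01 ± 0.23 under DTT + TUDCA, and that of T over D was 1.04 ± 0.23, the last one 0.77 without T replicate 2. Both calls of Novel07402 ended without DTT replicate 3, where the values were -0.93 against C and 0.93 over D. The ratio of Novel07402 to Novel07753 stayed between 1.03 and 1.36 in the 9 libraries. Both lie on group 5 chromosomes, in the B and D genomes, and their sequences were not compared here.

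The summed FPKM of all 31 genes was 142 to 148 in C, 130 to 180 in D and 165 to 201 in T, and D overlapped with C. With scaled values it was 153 to 166 in C, 120 to 165 in D and 157 to 204 in T, and both treated groups overlapped with C. The other 29 genes summed to 68.4 to 73.4 FPKM in C, 85.2 to 129 in D and 86.2 to 106 in T, with both treated groups above the control in the deposited values. After scaling, these sums were 72.9 to 86 in C, 78.9 to 119 in D and 87.1 to 101 in T, so that D overlapped with C and T lay above C.

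**Figure D3:**
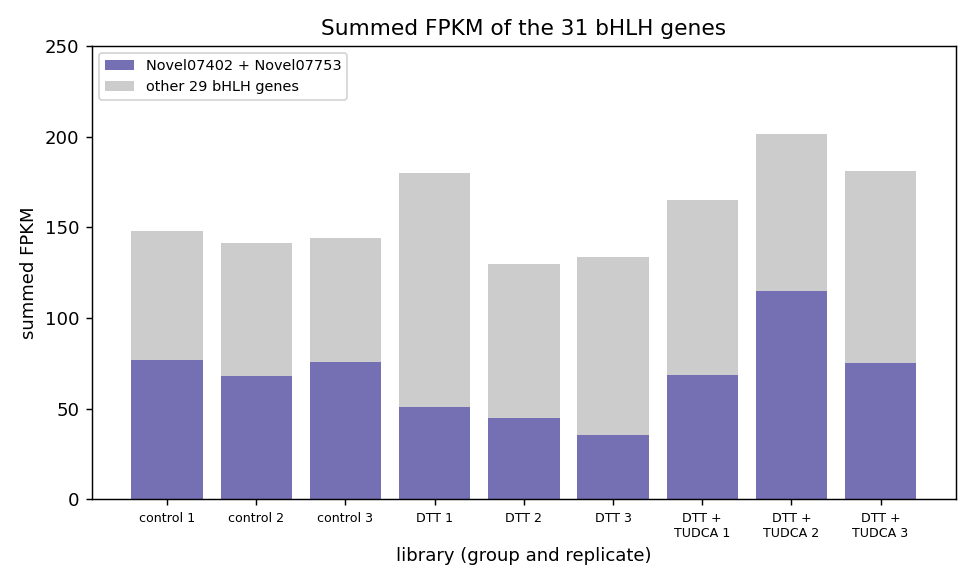
Summed FPKM of the 31 bHLH genes in each of the 9 libraries, divided into Novel07402 plus Novel07753 (dark) and the other 29 genes (light). The dark part is 68.2 to 76.6 FPKM in the control, 35.3 to 50.7 under DTT and 68.8 to 115 under DTT + TUDCA, with the highest value in T replicate 2.

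The highest fitted change in D vs. C belonged to Traes_5BL_DDC2491F7. It had 0.293, 0 and 0.339 FPKM in C, 14.2, 1.99 and 11.8 in D, and 8.16, 2.11 and 4.95 in T. Every treated library was above every control library. The spread within the treated groups was wide, and replicate 2 was the lowest in both. The log2 fold change against the control was 4.63 ± 0.82 under DTT and 4.03 ± 0.82 under DTT + TUDCA, and the D vs. C value was between 3.92 and 5.5 with any 1 library left out.

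Traes_6AS_C1A37E015 came next in D vs. C, with 0.0716, 0.0769 and 0 FPKM in C, 3.51, 0.681 and 3.05 in D, and 1.75, 0.492 and 1.99 in T. The control libraries held at most 1 fragment each on this gene, and replicate 2 was again the lowest in both treated groups. Compared with C, its mean was at least 10-fold higher in D and at least 6.03-fold higher in T.

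Novel06231, an added locus at chr4B:296196873-296199290 on the minus strand, was also nearly silent in the control. Its FPKM was 0.0925, 0.0497 and 0 in C, 1.82, 1.08 and 2.75 in D, and 1.22, 0.848 and 1.62 in T. The treated libraries did not overlap with the control. The mean was at least 12.2-fold higher in D and at least 8.2-fold higher in T than in C.

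The lowest fitted values of T over D were those of Novel02725 and Traes_4BL_0F2281616. Novel02725, at chr2B:271859468-271860809 on the minus strand, carries the GO terms protein dimerization activity and integral component of membrane. It had 0, 0.148 and 0.0677 FPKM in C, 1.1, 0.437 and 0.936 in D, and 0.179, 0 and 0.222 in T. The 3 DTT libraries stood above the other 6, and C and T overlapped. Relative to C the mean under DTT was at least 5.35-fold higher, and the T vs. D log2 fold change was -2.02 ± 0.57. The DTT libraries held 25, 9 and 23 fragments on this gene, so these values rest on few reads. The call in T vs. D ended without DTT replicate 1 (-1.79), DTT replicate 3 (-1.88) or T replicate 2 (-1.51). The call in D vs. C ended without control replicate 1, DTT replicate 1 or DTT replicate 3, at 1.93 to 2.16.

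Traes_4BL_0F2281616 was measured at 0.257, 0 and 0 FPKM in C, 1.85, 2.04 and 1.6 in D, and 0.753, 0.737 and 0.311 in T. The groups did not overlap with each other, with T between C and D. Its mean was at least 4.23-fold higher in D and at least 1.46-fold higher in T than in C, and the T vs. D log2 fold change was -1.47 ± 0.54, which was not called. The call in T vs. C ended without T replicate 1 (1.89), T replicate 2 (1.87), control replicate 2 (1.75) or control replicate 3 (1.74). The implied transcript is only 394 bp, and the control libraries held 2, 0 and 0 fragments.

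Traes_6DL_45FA84C74, which the study's GO terms place under autophagy, varied little among the DTT libraries. Its FPKM was 4.19, 1.14 and 2.15 in C, 14.5, 15.6 and 15.7 in D, and 8.59, 9.36 and 7.12 in T. The 3 groups did not overlap. The log2 fold change against the control was 2.51 ± 0.35 under DTT and 1.69 ± 0.35 under DTT + TUDCA, and that of T over D was -0.81 ± 0.35, and the last was not called.

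Novel06258, at chr4B:313064377-313065134 on the minus strand, was the third most abundant member. It had 5.33, 6.48 and 7.47 FPKM in C, 17.1, 13 and 17.2 in D, and 18.3, 14.5 and 24.3 in T. Both treated groups lay above the control and overlapped with each other. Against the control the log2 fold change was 1.04 ± 0.21 under DTT and 1.35 ± 0.21 under DTT + TUDCA. The D vs. C call ended without control replicate 1 (0.89), DTT replicate 1 (0.98) or DTT replicate 3 (0.95). The implied transcript length is 580 bp, and its GO terms include organic acid and lipid transport, terms that do not describe DNA binding.

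The other genes with higher DTT means were Traes_3B_EB8DA10171, Traes_2DL_AD34A7228, Traes_6DL_882BC1812, TRAES3BF130100030CFD_g, Traes_5AL_F72B730FE, Traes_3B_2DF1A6E5B, Traes_4DL_1C0F38900, TRAES3BF036800040CFD_g and Traes_4DL_29A136781. Traes_3B_EB8DA10171 was similarly high in both treated groups, with 0.507, 0.454 and 1.25 FPKM in C, 7.79, 5.89 and 5.47 in D, and 4.04, 7.26 and 6.02 in T. Its log2 fold change against the control was 2.84 ± 0.35 under DTT and 2.73 ± 0.35 under DTT + TUDCA. Traes_3B_2DF1A6E5B was likewise above the control in both, with 2.91, 1.14 and 2.2 FPKM in C, 12.7, 7.86 and 5.78 in D, and 9.06, 5.69 and 13.3 in T. Its log2 fold change was 1.81 ± 0.39 in D and 1.94 ± 0.39 in T.

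In Traes_5AL_F72B730FE the FPKM was 0.949, 1.53 and 1.31 in C, 9.77, 4.52 and 4.31 in D, and 4.05, 1.77 and 4.3 in T. Every DTT library was above every T library, by a small margin in DTT replicate 3, and every T library was above every control library before scaling. After scaling T and C overlapped in T replicate 2. The T vs. C log2 fold change of 1.09 ± 0.39 was not called, and without T replicate 2 it was 1.47 and called. Traes_2DL_AD34A7228, at 0.0538, 0.231 and 0.0397 FPKM in C, 0.699, 1.37 and 0.692 in D, and 0.551, 0.216 and 0.163 in T, was highest under DTT, and T and C overlapped. Traes_4DL_1C0F38900 had 0.659, 0.531 and 0.267 FPKM in C, 1.58, 1.32 and 1.4 in D, and 1.09, 0.982 and 0.677 in T. Its DTT libraries were above all others. The D vs. C log2 fold change was 2.17 ± 0.51 for Traes_2DL_AD34A7228 and 1.24 ± 0.34 for Traes_4DL_1C0F38900, and the call of the latter ended without control replicate 3 (0.90) or any 1 DTT library (1.17 to 1.29).

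TRAES3BF130100030CFD_g had 0.917, 0.0703 and 0.724 FPKM in C, 2.27, 3.18 and 1.74 in D, and 2.43, 2.18 and 1.34 in T. Both treated groups were above the control, where replicate 2 held 1 fragment. Its log2 fold change was 2.02 ± 0.60 in D and 1.82 ± 0.60 in T, and both moved most with the control libraries. Without control replicate 2 they were 1.22 and 1.01, and without control replicate 1 they were 2.51 and 2.31, the last of which was called. The D vs. C call ended without any 1 of the DTT libraries (1.81 to 2.21). In TRAES3BF036800040CFD_g the DTT libraries were far apart, at 5.39, 0.513 and 3.45 FPKM, while C was 0.859, 0.723 and 1.02 and T was 2.37, 2.23 and 3.7. DTT replicate 2 lay below all controls. The D vs. C log2 fold change of 1.03 ± 0.66 became 1.98 without that library, which was called, and 0.41 without DTT replicate 1.

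Traes_6DL_882BC1812 also turned on 1 library, in T. It had 0, 0 and 0.027 FPKM in C, 0.352, 0.271 and 0.553 in D, and 0.0358, 0.336 and 0 in T. Relative to C its mean under DTT was at least 3.2-fold higher. The T vs. D log2 fold change was -1.33 ± 0.57 with all libraries and -1.97 without T replicate 2, which was called. The D vs. C call ended with 5 of the 9 omissions.

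**Figure D4:**
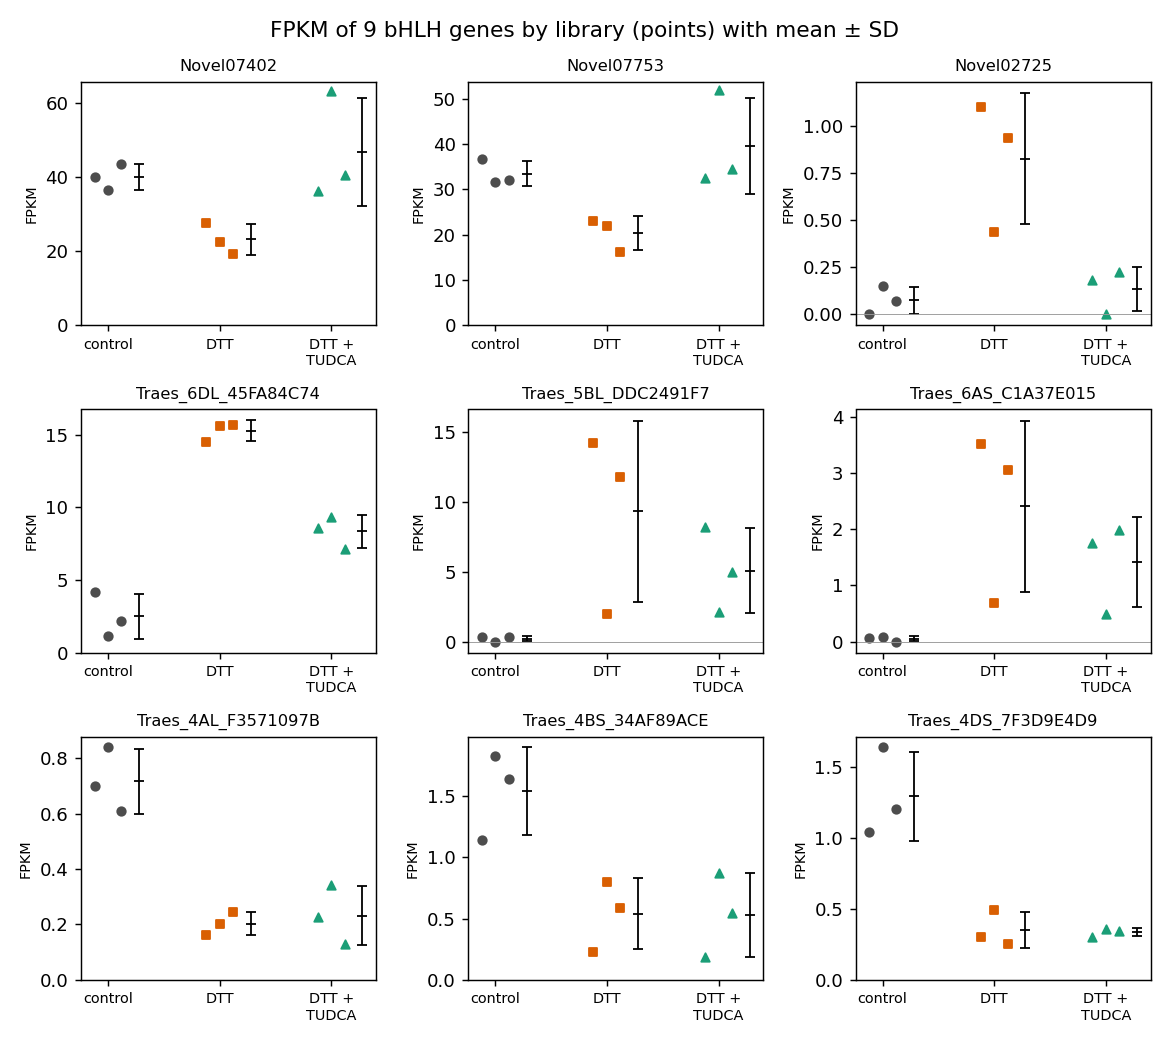
FPKM of 9 bHLH genes, with 1 point per library and the mean ± SD of the 3 libraries beside each group. The top row shows Novel07402 and Novel07753, lowest under DTT, and Novel02725, highest under DTT. The middle row shows genes that were higher in both treated groups, and the bottom row the group 4 genes that were lower in both.

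The lowest fitted value in D vs. C was that of Traes_5DL_C6C077BB9. It had 0.871, 0.596 and 0.701 FPKM in C, 0.228, 0.0837 and 0.14 in D, and 0.232, 0.182 and 0.191 in T. Both treated groups lay below the control, with at most 3 fragments in each library. The mean was at least 3.72-fold lower in D and at least 3.11-fold lower in T.

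3 genes on group 4 chromosomes, each in a different genome, were lower in both treated groups. Traes_4DS_7F3D9E4D9 and Traes_4BS_34AF89ACE lie on the short arms and have implied lengths of 1957 and 2140 bp, within 10% of each other. Traes_4AL_F3571097B, at 2389 bp on the long arm, was added to them after its values were seen. The long arm of chromosome 4A is known to carry segments that match the short arms of 4B and 4D, but whether these 3 genes are copies of each other was not tested.

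Traes_4DS_7F3D9E4D9 had 1.04, 1.64 and 1.2 FPKM in C, 0.299, 0.493 and 0.253 in D, and 0.303, 0.356 and 0.344 in T. For Traes_4BS_34AF89ACE the values were 1.14, 1.83 and 1.64 in C, 0.228, 0.801 and 0.588 in D, and 0.185, 0.869 and 0.544 in T. Traes_4AL_F3571097B gave 0.7, 0.843 and 0.61 in C, 0.163, 0.202 and 0.245 in D, and 0.228, 0.341 and 0.128 in T. In each of these genes all treated libraries were below all control libraries, and D and T overlapped.

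The D vs. C log2 fold change of these genes was -1.86 ± 0.33 for Traes_4DS_7F3D9E4D9, -1.67 ± 0.52 for Traes_4BS_34AF89ACE and -1.63 ± 0.36 for Traes_4AL_F3571097B. Under DTT + TUDCA it was -1.83 ± 0.33, -1.69 ± 0.52 and -1.50 ± 0.36 in the same order. The values of T over D were 0.04 ± 0.33, -0.01 ± 0.52 and 0.13 ± 0.36. Traes_4BS_34AF89ACE was the least firm, since its D vs. C call ended with 6 of the 9 omissions, at -1.25 to -1.88, and its T vs. C call also with 6 of the 9, at -1.19 to -1.90. The T vs. C call of Traes_4AL_F3571097B ended without control replicate 2 (-1.36). Traes_4DS_7F3D9E4D9 carries the GO term chlorophyllide a oxygenase activity, the enzyme that makes chlorophyll b.

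TRAES3BF276900020CFD_g had the third lowest fitted value in D vs. C. It had 4.45, 6.26 and 4.99 FPKM in C, 3.14, 1.08 and 1.36 in D, and 1.92, 2.44 and 2.95 in T. Both treated groups lay below the control, and DTT replicate 1 was the highest of the treated libraries. The log2 fold change against the control was -1.81 ± 0.36 under DTT and -1.26 ± 0.36 under DTT + TUDCA. The T vs. C call ended without control replicate 2 (-1.09), control replicate 3 (-1.32) or T replicate 1 (-1.10). Traes_6DL_62A15AED6 and Traes_5AL_EDF2DD187 also had their highest treated value in DTT replicate 1, at 2.99 and 3.4 FPKM, against 1.03 to 1.87 FPKM in the other 2 DTT libraries. Over the 15 members with lower DTT means, DTT replicate 1 was the highest of its group in 11. The same held for 9 of the 16 members with higher DTT means, so this was not particular to the lower genes.

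Traes_5BL_8C181ECA8 was the only other gene with a mean over 10 FPKM. It had 17.2, 16.6 and 13.3 FPKM in C, 9.62, 9.47 and 7.05 in D, and 10.4, 10.2 and 10.2 in T. The 3 groups did not overlap, with T between C and D and closer to D. Its log2 fold change against the control was -1.09 ± 0.17 under DTT and -0.79 ± 0.17 under DTT + TUDCA, the smallest standard errors of the family. Without DTT replicate 3 the D vs. C value was -0.96, which was not called.

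The remaining genes with lower DTT means were Traes_5BL_B820523A7, Traes_6BL_868408DFC, Traes_7AS_15078CC8B, Traes_6AL_9437F730F and Traes_6AS_4D5775944. The first 4 had D vs. C log2 fold changes from -1.66 for Traes_5BL_B820523A7 to -1.19 for Traes_6AL_9437F730F. Traes_5BL_B820523A7 had 2.5, 1.64 and 1.63 FPKM in C, 0.732, 0.575 and 0.611 in D, and 0.707, 1.75 and 1.05 in T, so that T reached into both other groups. Its T vs. C log2 fold change of -0.91 ± 0.34 was not called, and without T replicate 2 it was -1.24 and called. For Traes_6BL_868408DFC the values were 3.76, 5.48 and 5.96 in C, 3.02, 2.17 and 1.79 in D, and 3.1, 4.57 and 3.53 in T, with T above D and overlapping C. Traes_6AL_9437F730F had 1.53, 2.16 and 2.65 FPKM in C, 1.35, 0.853 and 0.906 in D, and 1.11, 0.812 and 1.29 in T, with both treated groups below the control. The T vs. C value of this gene, -1.09 ± 0.29, lost its call without T replicate 2 (-0.94), control replicate 2 (-1.02) or control replicate 3 (-0.94), and the D vs. C call ended without control replicate 2 (-1.12), control replicate 3 (-1.05) or DTT replicate 2 (-1.07).

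In Traes_7AS_15078CC8B the FPKM was 10.7, 11.5 and 7.27 in C, 6.84, 5.21 and 3.21 in D, and 7.15, 8.16 and 8.09 in T, so that T lay above D and overlapped with C. The D vs. C call of this gene ended without DTT replicate 3 (-0.94). Traes_6AS_4D5775944 had 0.177, 0.221 and 0.13 FPKM in C, 0, 0.0311 and 0 in D, and 0.144, 0.0338 and 0.0356 in T. It was at least 2.47-fold lower in D than in C, from 6 or 7 fragments in each control library.

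Genes on the same-numbered chromosome in different genomes, with implied lengths within 10%, formed 6 pairs, and in 4 of them both genes differed from the control in the same direction under DTT. Besides the group 4 pair, these were Traes_6AS_C1A37E015 with Traes_6DL_45FA84C74, Traes_5AL_F72B730FE with Traes_5BL_DDC2491F7, and Traes_6AS_4D5775944 with Traes_6BL_868408DFC. Traes_5AL_F72B730FE, with log2 fold changes against the control of 1.89 ± 0.39 under DTT and 1.09 ± 0.39 under DTT + TUDCA, was opposite in direction to Traes_5BL_8C181ECA8 and Traes_5BL_B820523A7. The pairs on group 6 join different arms. Length and chromosome alone do not make genes copies of each other, and their sequences were not used here.

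In T vs. C, 16 of the 30 genes were called, 9 higher and 7 lower in T, where 7.87% of all genes were called, 4.36% higher and 3.5% lower. The libraries of T and C did not overlap in 20 genes, against 31% of all genes. Without T replicate 2 the count was 26, though fewer libraries also make overlap rarer, and the 31% is for all libraries. The median was 0.48, against -0.02 over all genes. This contrast also chose the members, so nothing is read from these shares. Of the 16 genes 10 were called whichever library was left out. The Traes_4DL_29A136781 gene was called under DTT + TUDCA and not under DTT. It had 1.58, 0.817 and 1.03 FPKM in C, 2.74, 2.28 and 2.36 in D, and 3.15, 3.34 and 2.6 in T. Both treated groups were above the control and overlapped with each other. Its log2 fold change against the control was 1.20 ± 0.25 under DTT + TUDCA and 0.85 ± 0.25 under DTT, the latter 1.08 and called without control replicate 1. Without the scaling of libraries 10 were called higher and 4 lower.

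In T vs. D, the comparison that shows what TUDCA added to DTT, 2 of the 30 genes were called, Novel07402 higher and Novel02725 lower in T, where 1.1% of all genes were called, 0.632% higher and 0.466% lower. Without T replicate 2 a count of 1 was left, and without DTT replicate 3 a count of 0. The libraries did not overlap in 11 genes, 5 higher and 6 lower in T, against 10.6% of all genes, 5.56% higher and 5.05% lower. Without DTT replicate 1 the count was 17, 11 higher and 6 lower, though fewer libraries also make overlap rarer. The 5 with higher values in T were Novel07402, Novel07753, Traes_5BL_8C181ECA8, Traes_6BL_868408DFC and Traes_7AS_15078CC8B. The 6 with lower values in T were Novel02725, Traes_4BL_0F2281616, Traes_2DL_AD34A7228, Traes_6DL_45FA84C74, Traes_5AL_F72B730FE and Traes_4DL_1C0F38900. Their T vs. D log2 fold changes ran from 0.31 for Traes_5BL_8C181ECA8 to 1.04 for Novel07402 among the higher genes, and from -0.56 for Traes_4DL_1C0F38900 to -2.02 for Novel02725 among the lower ones. At an adjusted P-value (limma, Benjamini-Hochberg) under 0.05, 0 members and 0.00128% of all genes passed in this comparison, and 9 members had an unadjusted P-value under 0.05, against 7.42% of all genes, from which nothing is read because the contrast chose the members.

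Other families of the study's list, chosen in the same way, show how the bHLH genes were divided by direction. In D vs. C 12 MYB genes were called higher and 21 lower of 44 tested, with a median log2 fold change of -1.12. Of 29 bZIP genes 22 were called higher and 5 lower, with a median of 1.80. The bHLH genes, with 14 called higher and 13 lower, lay between these families. Their median was 0.94, but no bHLH value lay between -0.97 and 0.85, so that median turns on few genes. Over the 420 tested transcription factor genes of all other families, MYB and bZIP included, 158 were called higher and 154 lower, with a median of -0.44. No test of these differences was made, since the same contrast chose every gene.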

How the data were processed

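The authors removed low-quality reads, mapped the rest to the wheat genome and deposited FPKM values per gene, 1 table for 9 libraries. The submitters' processing notes name Bowtie2 2.2.3, TopHat2 2.0.12 and HTSeq 0.6.1. The genome release and the use of strand in counting are not given in the sources used here.

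Here each library was scaled by a median-ratio factor (0.853 to 1.09) taken over 54436 genes, and log2(scaled FPKM + 0.1) was fitted with limma 3.58.1 in R 4.3.3, with a variance trend and 3 groups in 1 model, for genes whose mean FPKM reached 0.1. Tables and plots used matplotlib 3.10.9, pandas 2.3.3 and numpy 2.4.6 under python 3.11.15. The linear fit was tested on simulated data. FPKM values in each library were whole multiples of 1 fragment, which gave the fragments of 100% of 91537 genes above 0. Implied lengths were whole numbers, within 0.02 bp, for 99.97% of these, with a median of 1227 bp. The other 39005 genes were at 0 in every library.

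Members and lists were chosen with earlier results of these data known. Values per library were given for the 5 added loci, the 3 largest rises and 3 largest falls in D vs. C, the 2 largest of each in T vs. D, the 3 most abundant genes and genes matched by chromosome and length, and other members shown were chosen after their values were seen. Gene names are those of the study, since a table of 155467 RefSeq gene names matched 0 of the members. Its GO table was held only in part, so a missing term says nothing. Equal replicate numbers deviated together in C and T, with correlations across genes of 0.26, 0.27 and 0.21, but not in C and D (-0.09, 0.00 and -0.09) or D and T (0.09, 0.04 and -0.30). D replicates 1, 2 and 3 correlated most with replicates 3, 1 and 2 of C (0.25, 0.18 and 0.16), and with T replicates 3 and 2 for D replicates 1 and 3 (0.43 and 0.34) and T replicate 1 for D replicate 2 (0.12). No source names a shared batch, so numbers were not crossed, and the replicate block, which joins equal numbers, does not follow this pattern in D. Alternatives tried were a pseudocount of 0.01 or 1, a filter at a mean FPKM of 1 or no filter, unscaled FPKM, quantile normalization, a replicate block, 2 groups per model, no variance trend, adjusted P-values, limma-voom on recovered fragments and leaving out each library.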

Additional observations from a re-analysis of the deposited data

How the results depend on the processing

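Of 1503 values of single genes under the alternatives, 0 changed sign after having been called. Of the same values, 67 moved by more than 1 SD of the replicates. Many had little or no room to move. The replicate block and the filters leave the fitted log2 fold change of a gene as it was. Leaving out a library of the group not compared alters it only through the scaling. The small share that moved is therefore not a measure of robustness. Adding 1 before the log2 shrinks the change of low genes and left 16 genes called in D vs. C (median 0.49), with 8 for T vs. C and 1 for T vs. D. With a minimum mean FPKM of 1 the median in T vs. C was 1.09 and 1 gene was called in T vs. D. That count was also 1 with unscaled FPKM and 1 with quantile normalization, 3 with limma-voom on the recovered fragments, and 0 at an adjusted P-value under 0.05 (limma). With the replicate number as a block, 26 genes were called in D vs. C (27 without it), 15 genes in T vs. C (16 without it) and 2 genes in T vs. D (2 without it), and no count changed by over 1.5 times.

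With each library left out in turn, 18 to 27 genes were called in D vs. C, 11 to 18 genes were called in T vs. C and 0 to 3 genes were called in T vs. D. The lowest counts came without DTT replicate 3 (18 in D vs. C, 0 in T vs. D), and without control replicate 2 or 3 in T vs. C (11 each). Without T replicate 2, 1 gene was called in T vs. D. In the same order of comparisons, groups did not overlap in 29 to 30, 20 to 26 and 11 to 17 genes, the last at 17 without DTT replicate 1. Fewer libraries by themselves make overlap rarer, so the higher counts are not read as clearer differences. Medians were 0.59 to 1.04, 0.32 to 0.66 and 0.04 to 0.16. The causes of these shifts were not tested. Genes with 3 fragments or fewer in a group allow only bounds, which cover no replicate spread.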
